A study of Mus musculus with 10 samples.

Results

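The collagens and the elastic fibre genes were followed in the aortic arch of mice that lack apolipoprotein E, with or without the adaptor protein MyD88. Members were the array probes whose 1 annotated gene symbol was a collagen chain or stood on a fixed list. The list held structural and assembly proteins of the elastic fibre, and enzymes and chaperones of collagen and elastin maturation. It was not complete, and others of these kinds, such as Loxl2, are given below as related genes of the matrix pathway. The members were 52 of 11130 genes with a symbol of their own, 38 of them collagen genes, and took 53 of 13872 probes on the array. Of these, 25 probes of 25 genes, 15 of them collagens, had enough values to be tested.

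The double-null mice carried ApoE-/- and MyD88-/-, and the apoE-null mice carried ApoE-/- alone, so loss of apolipoprotein E was shared by both groups. Each of 10 two-colour arrays set RNA of 1 double-null mouse against RNA of 1 apoE-null mouse, and every mouse pair was measured a second time with the dyes exchanged, which gave 5 replicates, the mouse pairs. Both mice of pair 1 were female, both mice of pairs 2, 3 and 4 were male, and in pair 5 a male double-null mouse was set against a female apoE-null mouse. A high fat diet for 8 weeks is stated for 8 arrays, and the other arrays hold mice that also appear on those. The sources used here give neither age nor strain background, and the labels name no promoter or Cre that would limit either deletion to a cell type. By the title of the series, the comparison bears on plaque formation in mice without MyD88.

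Collagen chains are secreted as procollagens, join in triple helices and are cross-linked outside the cell, and types I and III are the main load-bearing collagens of the arterial wall. Elastic fibres have a core of elastin on a scaffold of microfibrils and form the lamellae that let the aorta recoil. In atherosclerotic arteries, smooth muscle cells make the interstitial collagen of the fibrous cap over a plaque, while type IV collagen lies in the basement membranes around smooth muscle and under the endothelium.

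All values are log2 ratios of double-null over apoE-null, so a value below 0 means less signal in the mouse without MyD88. A pair value is the mean of the pair's 2 dye-swapped arrays, and errors are standard deviations over pairs. A member was called when limma's adjusted p against 0, with Benjamini-Hochberg adjustment over 4866 tested probes, was under 0.05. The aortic arch is bulk tissue, in which fewer cells of a type and less RNA per cell cannot be told apart.

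Arrays held values for 4581 to 7057 probes and for 23 to 34 of the member probes. Myd88, the targeted gene, was below 0 on 10 of 10 arrays, with a mean of -0.90 ± 0.22 (n = 5, limma's adjusted p = 0.0248). Leaving out any 1 pair ended this call, with means of -0.98 to -0.84 and adjusted p between 0.0528 and 0.119. Apoe, which both groups lack, averaged -0.36 ± 0.15 (n = 3, limma's adjusted p = 0.511). Partner arrays of a pair correlated across all probes with r = 0.56, 0.31, 0.04, 0.19 and 0.46 in pairs 1 to 5, a description across probes that are not independent. Of the members with values on both arrays, 17 of 30, 14 of 21, 19 of 25, 14 of 26 and 22 of 26 had the same sign on both. Pair 5 was the most alike between orientations by this count, while pairs 1 and 4 were little above an even split. Across the members alone, r between partner arrays was 0.16, 0.59, 0.04, -0.03 and 0.36 in pairs 1 to 5. By that measure pair 2 was the most alike, and pairs 3 and 4 were near 0.

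A pair of chains of the interstitial fibre illustrate the upstream sequence of members described below, Col1a2 of collagen I and Col3a1 of collagen III. Each line gives 200 bases before the RefSeq transcription start in GRCm38.p6, on the plus strand, at chr6:4505418-4505617 for Col1a2 and chr1:45311338-45311537 for Col3a1. Capitals mark matches to the motif GGGCGG, to the motif CCAAT or to the motif TATAAA.
Col1a2: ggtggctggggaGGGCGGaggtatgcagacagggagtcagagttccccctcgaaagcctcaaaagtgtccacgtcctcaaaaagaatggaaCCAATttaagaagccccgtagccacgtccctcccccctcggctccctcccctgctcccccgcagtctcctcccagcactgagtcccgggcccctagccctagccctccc
Col3a1: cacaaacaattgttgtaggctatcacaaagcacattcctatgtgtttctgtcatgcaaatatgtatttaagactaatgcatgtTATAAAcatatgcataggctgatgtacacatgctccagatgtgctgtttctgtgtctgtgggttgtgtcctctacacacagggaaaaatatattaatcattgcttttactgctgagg
GGGCGG begins 188 bases and CCAAT 109 bases before the start of Col1a2, and TATAAA begins 117 bases before that of Col3a1. Searched on both strands in 250 bases before the start, CCAAT was in 8 of 18 tested members with an entry, TATAAA in 1 and GGGCGG in 13. Of all 32851 windows of that length, 33.8%, 12.4% and 32.7% held them. The members were counted by gene and the percentages by single window, so they are not a like comparison. No excess of a motif in the members is read from them. A match describes the letters only and shows no bound factor.

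No member was called in either direction. Over all probes, 38 of 4866 were called (0.781%), and 11, 2, 5, 0 and 25 without pairs 1, 2, 3, 4 and 5 in turn. At an unadjusted p under 0.05, 1 member was lower, Col18a1, against 5.9% of all probes, and 1 was higher, Col27a1, against 4.13%. Of the 25 tested members, 18 (72%) had a mean below 0, compared with 58.7% of all tested probes. Their median was -0.15 (quartiles -0.22 and 0.01), and the median of all probes was -0.04 (quartiles -0.17 and 0.10). The members' median was -0.06 without pair 1 and -0.09 without pair 5. In the 3 male pairs alone it was 0.04, above 0, over the 20 members with a value in each. The same 20 members had a median of -0.17 over all pairs. The members' means thus lay slightly to the low side of the other probes over all pairs. A median of all probes over the male pairs is not given here, so the members were not set against other probes there.

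**Figure D1:**
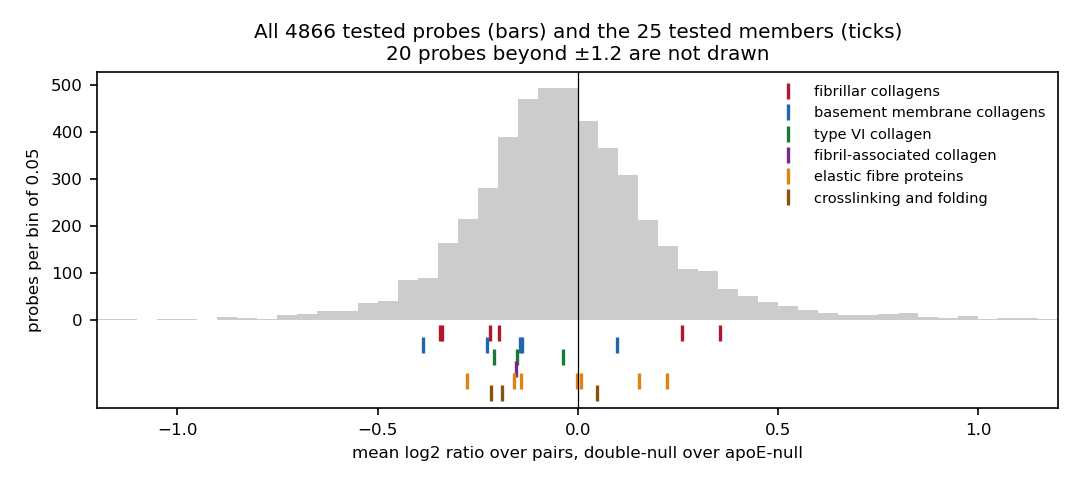
Histogram of the mean log2 ratio (double-null over apoE-null, x axis, bins of 0.05) over 4866 tested probes (y axis, number of probes), with 1 tick for each of the 25 tested collagen and elastic fibre genes. The ticks lie between -0.39 and 0.35, inside the bulk of the histogram, and 20 probes beyond the x axis are not drawn.

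The interstitial fibrillar collagens centred slightly below 0, with 4 of 6 tested members there and a list median of -0.21. That median was -0.12 without pair 1, -0.12 without pair 5, -0.34 without pair 3 and -0.02 in the 3 male pairs alone. The male-pair value rests on 4 members, without Col5a3 and Col27a1. The median of the same 4 members over all pairs was -0.28. Col1a1, the α1 chain of collagen I, measured -0.77, -0.10, 0.23, -0.32 and -0.76 in pairs 1 to 5. It was lowest in pairs 1 and 5 and above 0 in pair 3, so the pairs lay on both sides of 0. Its mean was -0.34 ± 0.43 (n = 5, 95% interval -0.73 to 0.04, limma's adjusted p = 0.522), a 1.27-fold lower signal. Col1a2, its partner chain, measured -0.64, -0.33, 0.44, 0.04 and -0.59 and averaged -0.22 ± 0.45 (95% interval -0.62 to 0.18). Both collagen I chains had their lowest values in the same 2 pairs.

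Col3a1, the collagen III chain of distensible tissues, measured -0.48, 0.15, 0.17, -0.27 and -0.56 and averaged -0.20 ± 0.34 (95% interval -0.53 to 0.14). Col5a2, a chain of collagen V that takes part in starting fibrils, measured -0.67, -0.78, 0.16, -0.12 and -0.28, with a mean of -0.34 ± 0.39 (95% interval -0.70 to 0.02). Only pair 3 was above 0 for Col5a2. Col3a1 and Col5a2 lie next to each other on chromosome 1 in the RefSeq gene order, with 0 protein-coding genes between them.

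The 2 remaining fibrillar collagens had means above 0. Col5a3, another collagen V chain, measured 0.32, 0.47, 0.10 and 0.15 in pairs 1, 2, 3 and 5 and averaged 0.26 ± 0.17 (n = 4, 95% interval -0.05 to 0.56). It was above 0 in every pair measured and below 0 on 1 of 9 arrays. Col27a1, a fibrillar chain best known from cartilage, measured 0.43, 0.46, -0.04 and 0.56 in pairs 1, 3, 4 and 5, with a mean of 0.35 ± 0.27 (n = 4, limma's adjusted p = 0.483). Its arrays split by dye, with a mean of -0.56 where double-null RNA was in channel 1 and 1.08 where it was in channel 2 (dye effect, limma's adjusted p = 0.00273). The sign of Col27a1 thus differed between the orientations, and the average is not a stable estimate of the genotype difference.

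**Figure D2:**
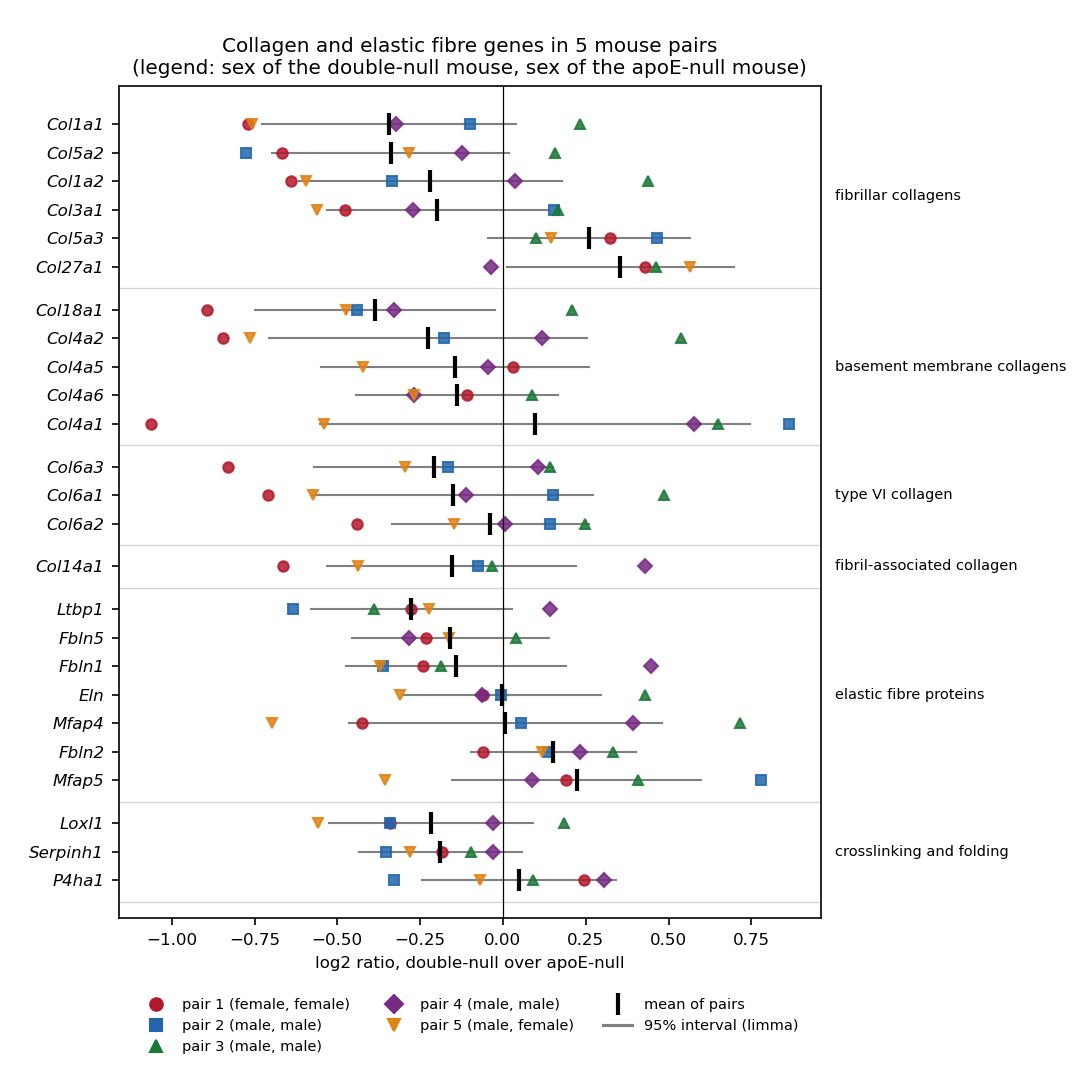
Log2 ratio of double-null over apoE-null (x axis) for each of the 25 tested members (rows, grouped by role), with 1 point per mouse pair, a black tick at the mean and a grey bar for the 95% interval from limma. The interval includes 0 for every member but Col18a1 and Col27a1, and for Col1a1, Col4a1 and Col6a1 the points of pairs 1 and 5 lie to the left of those of pairs 2 to 4.

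Among the basement membrane collagens, Col4a1 had the widest spread between pairs of all tested members. This main chain of collagen IV measured -1.06, 0.86, 0.65, 0.58 and -0.54, so pairs 1 and 5 were below 0 and the 3 male pairs above it without overlap. Its arrays lay between 0.33 and 0.97 in the male pairs and between -1.77 and -0.15 in pairs 1 and 5. The mean over pairs was 0.10 ± 0.85 (95% interval -0.55 to 0.75, limma's adjusted p = 0.908). Col4a2, which joins Col4a1 in the same helix and is its neighbour on chromosome 8, measured -0.85, -0.18, 0.54, 0.12 and -0.76. Its mean was -0.23 ± 0.59, and it also had a dye effect (limma's adjusted p = 0.0461), with means of -0.57 and 0.12 for the 2 orientations.

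Col18a1, whose C-terminal fragment is endostatin, measured -0.89, -0.44, 0.21, -0.33 and -0.48 and was below 0 on 8 of 10 arrays. It averaged -0.39 ± 0.40 (n = 5, 95% interval -0.75 to -0.02), 1.31-fold lower, and did not pass adjustment over all probes (limma's adjusted p = 0.473). The minor chains Col4a5 and Col4a6, whose genes stand beside each other on chromosome X, averaged -0.14 ± 0.24 (n = 3) and -0.14 ± 0.17 (n = 4). The mean of Col4a5 was -0.34 in the fit of single arrays with the pair as a replicate block, and -0.40 where a pair value could come from 1 array. The list median of the 5 tested basement membrane collagens was -0.14. It was -0.09 without pair 5, where 4 members were left, and -0.23 in the replicate block fit. In the 3 male pairs alone it was 0.16, over the 3 members with a value in each. The median of the same 3 members over all pairs was -0.23.

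The type VI chains, which form beaded filaments between cells and the fibrillar matrix, were lowest in pair 1 and highest in pair 3. Col6a1 measured -0.71, 0.15, 0.49, -0.11 and -0.57, with a mean of -0.15 ± 0.50. Col6a2, beside it on chromosome 10, measured -0.44, 0.14, 0.25, 0.01 and -0.15, with a mean of -0.04 ± 0.27. Col6a3 measured -0.83, -0.17, 0.14, 0.10 and -0.30, with a mean of -0.21 ± 0.39. All 3 chains were also below 0 in pair 5. Col14a1, a collagen attached to fibril surfaces, measured -0.66, -0.07, -0.03, 0.43 and -0.44 and averaged -0.16 ± 0.42 (95% interval -0.53 to 0.22).

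The elastic fibre genes centred at 0 over the pairs, with 4 of 7 tested members below it and a list median of -0.0025. That median was 0.03 with each array centred on its median. In the male pairs alone it was 0.18, over 6 members whose median over all pairs was 0.0026. Eln, the elastin core, measured -0.06, -0.01, 0.43, -0.06 and -0.31, with a mean of -0.0025 ± 0.27 (95% interval -0.30 to 0.30, limma's adjusted p = 0.995). The values of pairs 1, 2 and 4 were close to 0, but the 2 arrays differed in sign in pairs 1 to 4. The mean of Eln was -0.22 in one dye orientation and 0.22 in the other. Mfap4, a microfibril-associated glycoprotein, measured -0.43, 0.05, 0.71, 0.39 and -0.70 and averaged 0.0077 ± 0.58, with pairs 1 and 5 again the lowest. Mfap5, another microfibril protein, measured 0.19, 0.78, 0.41, 0.09 and -0.36, with a mean of 0.22 ± 0.42.

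Among the fibulins, which link elastin to microfibrils and basement membranes, Fbln2 measured -0.06, 0.14, 0.33, 0.23 and 0.12, with a mean of 0.15 ± 0.15 (95% interval -0.10 to 0.40). It was below 0 on 1 of 10 arrays. Fbln1 measured -0.24, -0.36, -0.19, 0.45 and -0.37, with a mean of -0.14 ± 0.34, and only pair 4 was above 0. Fbln5, needed for elastic fibre assembly, measured -0.23, 0.04, -0.28 and -0.16 in pairs 1, 3, 4 and 5 and averaged -0.16 ± 0.14 (n = 4). Its means by orientation were -0.50 and 0.19 (dye effect, limma's adjusted p = 0.0877). Ltbp1, which tethers latent TGF-β to microfibrils, measured -0.28, -0.64, -0.39, 0.14 and -0.22, with a mean of -0.28 ± 0.28 (95% interval -0.58 to 0.03).

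The maturation genes were close to 0 or slightly below it. Serpinh1, the collagen chaperone HSP47, measured -0.18, -0.35, -0.10, -0.03 and -0.28 and averaged -0.19 ± 0.13 (n = 5, 95% interval -0.43 to 0.06, limma's adjusted p = 0.565). It was the 1 member below 0 in all 5 pairs among 20 with 5 pair values, against 6.56% of all such probes. None of the 20 was above 0 in all 5 pairs, against 4.29%. Loxl1, a lysyl oxidase that cross-links elastin, measured -0.34, -0.34, 0.18, -0.03 and -0.56 and averaged -0.22 ± 0.29. P4ha1, the catalytic subunit of prolyl 4-hydroxylase, measured 0.25, -0.33, 0.09, 0.31 and -0.07, with a mean of 0.05 ± 0.26.

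The values of the members differed between pairs across all roles. Their median was -0.34, -0.10, 0.20, -0.01 and -0.36 in pairs 1 to 5, while that of all probes lay between -0.10 and -0.0044. In pair 1, 20 of 25 members were below 0, in pair 3 only 4 of 24, and in pair 5 22 of 25. For the 15 collagens the medians were -0.66, -0.09, 0.22, -0.04 and -0.44. Of the 25 members, 19 were below 0 in both pair 1 and pair 5, the pairs whose apoE-null mouse was female. Of 4363 tested probes with values in both pairs, 37.7% were. Col4a1, Mfap4 and Col6a2 were below 0 in both and above 0 in pairs 2, 3 and 4, as were 4.51% of all probes with 5 pair values. Both counts were chosen after the values were seen, and the part of the apoE-null mouse's sex was not tested.

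**Figure D3:**
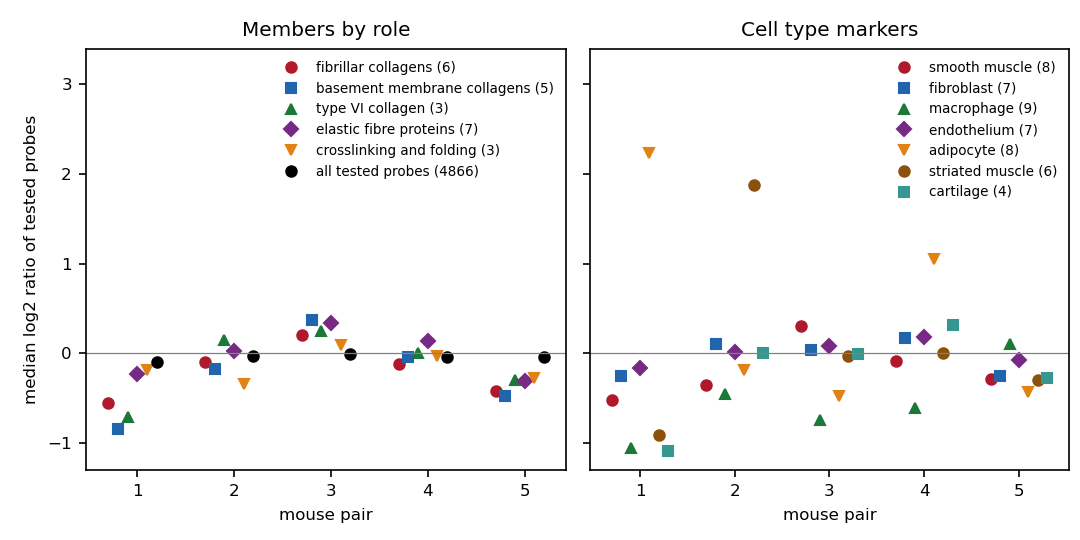
Median log2 ratio (double-null over apoE-null, y axis) in each of the 5 mouse pairs (x axis) for the members by role and all tested probes (left) and for cell type marker lists (right), with the number of tested probes in brackets. The fibrillar collagen medians are -0.56 and -0.42 in pairs 1 and 5 and 0.20 in pair 3, while the medians of all probes lie between -0.10 and -0.0044, and the adipocyte markers reach 2.23 in pair 1.

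Sex could be examined as the female pair 1 against the 3 male pairs, with the spread taken from the male pairs alone. Of 20 members with the values this needs, 18 (90%) had a lower ratio in the female pair, compared with 57.2% of 3775 such probes. The median difference was -0.53 against -0.08. None of the members was called, against 0.265% of those probes. At an unadjusted p under 0.05 there were 6, namely Col4a1, Col4a2, Col6a1, Col6a3, Mfap4 and Col14a1, against 16.3% of those probes. Col4a1 differed by -1.76 between the female pair and the mean of 0.70 in the male pairs (limma's adjusted p = 0.0534). A single female pair cannot separate sex from that pair's own mice.

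Markers of other cell types also moved between pairs. The 8 smooth muscle probes had medians of -0.52, -0.36, 0.31, -0.08 and -0.29, low in pair 1 and high in pair 3 as the members were. The 7 fibroblast markers had medians of -0.25, 0.11, 0.03, 0.17 and -0.25, and the 7 endothelial markers -0.16, 0.01, 0.09, 0.18 and -0.08. The 9 macrophage markers were all below 0 on average, with medians of -1.05, -0.45, -0.75, -0.61 and 0.10. These were lowest in pair 1 but also low in pair 3, where most members were above 0.

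Markers of fat, striated muscle and cartilage varied as well. The 8 adipocyte probes had medians of 2.23, -0.19, -0.48, 1.06 and -0.43, the 6 striated muscle probes -0.91, 1.88, -0.03, 0.0031 and -0.30, and the 4 cartilage markers -1.09, 0.0031, -0.0054, 0.32 and -0.28. Without pairs 1 and 4, where the adipocyte markers were high, the members' median was -0.11. Then 0 of 21 members were called, against 0.185% of the 3791 probes tested. No marker was called in any list, the deposited ratios give no level of a marker in either genotype, and the part of these tissues in the members' values was not tested.

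The spread of a member over pairs had a median standard deviation of 0.339, and that of all probes 0.302. The distance of each array from its pair's mean had a median of 0.157 for the members and 0.153 for all probes. A dye effect was called for Col4a2 and Col27a1, 2 of 25 members, against 4.75% of all probes.

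**Figure D4:**
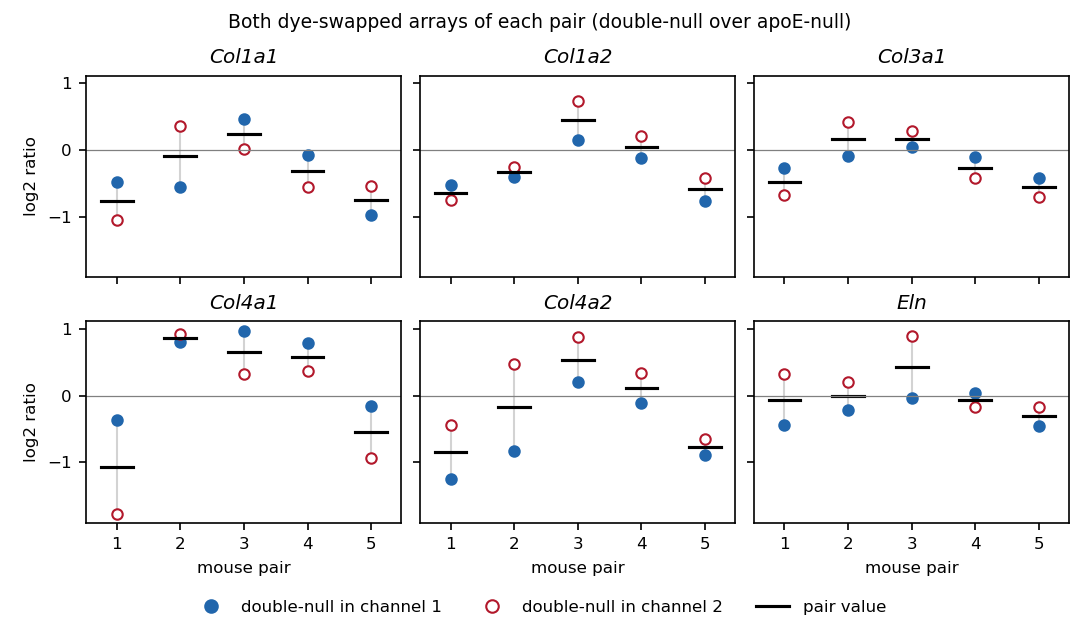
Log2 ratio (double-null over apoE-null, y axis) on each array for Col1a1, Col1a2, Col3a1, Col4a1, Col4a2 and Eln, with both dye orientations shown for each of the 5 mouse pairs (x axis). For Col4a1 all 6 arrays of the male pairs lie above 0 and all 4 arrays of pairs 1 and 5 lie below it. The orientations of Eln differ in sign in pairs 1 to 4.

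The related genes of the matrix pathway were read from lists of 75 genes, of which 29 were tested with 30 probes. Loxl2, a lysyl oxidase of collagen cross-linking, was the 1 call, against 0.781% of all probes. It measured 0.80, 1.28, 1.01, 0.64 and 0.54 and averaged 0.86 ± 0.30 (n = 5, limma's adjusted p = 0.0363). Its orientations disagreed, with a mean of -0.58 where double-null RNA was in channel 1 and 2.29 where it was in channel 2 (dye effect, limma's adjusted p = 5.28e-06). The call of Loxl2 ended when any 1 pair was left out (limma's adjusted p between 0.0528 and 0.131) and in the replicate block fit (adjusted p = 0.591). Its direction rests on the average over dyes.

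Of the 13 tested probes for other collagen and elastic fibre assembly genes, 9 were below 0 with a median of -0.09. Most encode collagen processing and cross-linking proteins, but the list also holds Emilin1, an elastic fibre glycoprotein, at -0.11, and the latent TGF-β binding proteins Ltbp2 and Ltbp3 at -0.37 and -0.26. Of 7 regulators of matrix synthesis, 5 were below 0 with a median of -0.19, and none was called. Smad6, an inhibitory Smad, averaged -0.42 ± 0.17 (limma's adjusted p = 0.212), Smad7, the other inhibitory Smad of TGF-β signalling, -0.42 ± 0.44 (adjusted p = 0.471) and Tgfbi, a TGF-β-induced matrix protein, -0.40 ± 0.33 (adjusted p = 0.415). Smad6 was below 0 in every pair, at -0.41, -0.31, -0.46, -0.68 and -0.25. Of the 3 matrix receptors, Ddr2, a collagen-binding receptor kinase, averaged -0.35 ± 0.28 (limma's adjusted p = 0.439). The 7 basement membrane genes that are not collagens, which are laminin chains, Nid1 of the nidogens and the proteoglycan gene Agrn, had a median of 0.07, with 3 below 0.

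The remaining 28 member probes were not tested. Of these, 14 were blank on every array, namely those of Col2a1, Col6a4, Col7a1, Col9a1, Col10a1, Col11a1, Col15a1, Col20a1, Col22a1, Col24a1, Col25a1, Col26a1, Fbn2 and Plod1. They include Col2a1, Col9a1 and Col11a1, chains of cartilage. Blank on every array were 14 of 53 member probes, against 41.9% of all probes. Over the whole array 35.1% of probes were tested, and of the members 47.2%.

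Another 14 probes had values on both arrays of a pair in fewer than 3 pairs. Lox, the main lysyl oxidase, had 7 array values and measured -0.27 and -0.20 in pairs 1 and 4. Mfap2, a microfibril glycoprotein, measured -0.26 and -0.21 in pairs 1 and 4 on 1 probe. Its other probe gave -0.44 and -0.69 where channel 1 held the double-null RNA, and 0.81 and 0.93 where channel 2 held it. The Mfap2 probes thus did not give 1 direction.

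Col4a4, a minor collagen IV chain, had values in 1 orientation only, at -0.74, 0.32, 0.40, -0.02 and 0.11 on arrays 1 to 5. Col5a1, the collagen V chain that pairs with Col5a2, measured 0.58, -0.52 and 0.16 on arrays 1, 4 and 5. Col8a1, a network-forming collagen of vessels, had a pair value of 0.34 in pair 5 alone. All 3 had values on both sides of 0 across their arrays. Col9a2, a cartilage collagen chain, measured 1.03 in pair 1 and 0.67 in pair 3. Its arrays there were 0.51 and 0.04 with double-null RNA in channel 1, and 1.56 and 1.31 with it in channel 2. Col13a1 and Col16a1 had a pair value in pair 1 only, at 0.98 and -0.16. In that pair channels 1 and 2 gave -0.01 and 1.97 for Col13a1, and -0.41 and 0.10 for Col16a1. The values of these chains rest on too few pairs for a mean. Col4a3, Col9a3, Col12a1, Col17a1 and Col19a1 had 1 or 2 array values each. Fbn1, Efemp1, Efemp2 and Ltbp4 are not analysed here.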

How the data were processed

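Per the labels' protocols, aortic arch RNA was amplified with MessageAmp and labelled with Micromax ASAP chemistry. A GenePix 4000B scanner, GenePix Pro 3.0 and GeneSpring were used, per the labels. The authors deposited 1 log2 ratio per probe and array, titled apoE-null over double-null. The sources used here give neither the normalization, nor the reason for blank cells (49.1% to 67% of an array), nor a genome build. The number of arrays limits the precision.

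Signs were turned, and the 2 arrays of a pair, which hold the same RNA, were averaged to 1 replicate. Pair values were formed where neither array was blank, and probes with at least 3 of them were kept. The labels number mice separately, so the spread behind each p-value is that between mouse pairs. In each fit limma moderated that spread with the spread of all tested probes. The intervals therefore do not follow from the printed standard deviations alone. Pair 1's arrays name its mice with genotypes exchanged, and the genotype labels were used. Tests against 0 were two-sided and run in limma 3.58.1 (lmFit and eBayes) under R 4.3.3. Their p-values were adjusted by Benjamini-Hochberg over 4866 probes. Those of the sex comparison were adjusted over 3775 probes, and those of an alternative over the probes it tested. The fit was checked on simulated data. Of the probes, 12143 had 1 symbol in the platform annotation, 49 several and 1680 none. Promoter windows came from RefSeq (GRCm38.p6), with an entry for 18 of the 25 tested members.

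Members and lists were chosen with earlier results of these data known. Named with values are all tested members, and pathway genes with an unadjusted p under 0.05. Emilin1, Ltbp2 and Ltbp3 did not meet that limit and are given to describe their list. Genes named for few values or a shared pattern were chosen after their values were seen. Alternatives were leaving out pairs, array-level and single-orientation fits, filters, centring, male pairs, priors and thresholds. Leaving out dye-effect probes, or pairs 1 and 4, was chosen after seeing the data. List medians are descriptions, with no test.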

Additional observations from a re-analysis of the deposited data

Results flagged for a closer look

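Fbln1 had 1 pair far from the others: pair 4 measured 0.45, while the other 4 pairs lay between -0.37 and -0.19. The gap took a share of 0.772 of the range. It was 1 of 31 groups of pair values looked at, and chance flags about 1 in 20 such groups.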

How the results depend on the processing

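No member was called lower under any alternative run, and the 1 member called higher was Col27a1, with double-null RNA in channel 2 only (1 call, limma's adjusted p = 0.018). The 10 arrays with the mouse pair as a replicate block gave 0 lower and 0 higher members (consensus correlation 0.342, median -0.16), and 35 of all probes. The calls over all probes depended on single pairs, from 0 without pair 4 and 2 without pair 2 to 25 without pair 5, against 38. They also numbered 11 without pair 1 and 5 without pair 3, and 4 with dye-effect probes left out, 7 without pairs 1 and 4, 74 at an adjusted p under 0.1 and 111 in channel 2 only. The members' median ranged from -0.21 to -0.06 when a pair was left out. Of 431 single-member values under alternatives, 33 changed sign, and 12 of 25 members never did. A changed prior, threshold or probe filter leaves the mean of a kept member as it was. The sign could not change in such settings, so these counts make the signs look steadier than they are. Loxl2 was -0.58 with double-null RNA in channel 1 only, against 0.86. The elastic fibre median changed sign under several settings, from -0.13 to 0.07 when a pair was left out. The 5 pairs and the blank cells limit the precision.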
